A study of Mus musculus with 6 samples.

Results

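The 7 genes Retnlg, Mmp9, Mmp25, Adam8, Anxa1, Ceacam1 and Ceacam10 were taken by name from a table of 51789 mouse genes as a set of gelatinase granule and late neutrophil maturation genes. All 7 had counts in every library and all 7 were among the 10397 genes that passed the filter on low counts. RNA came from bone marrow neutrophils selected with beads against Ly6G, and Lexogen QuantSeq, a method that reads transcripts near their 3′ end, gave 6 libraries. Of these, 3 are labelled wild type (WT) and 3 knockout (KO); the gene named in the knockout is Snph, which encodes syntaphilin, an anchor of mitochondria on microtubules. The labels used here give no strain, age, treatment or description of the allele. They also do not tie a replicate to a mouse, so each p-value measures spread between libraries that may be only technical.

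Neutrophils fill their granules in the order in which they mature. Azurophil proteins are made first, in promyelocytes, specific granule proteins next, in myelocytes and metamyelocytes, and gelatinase, in the form of matrix metalloproteinase 9, in band and segmented cells. Gelatinase granules are released more readily than the older granules when a neutrophil leaves the blood, and their proteases cut basement membrane and surface proteins. The 7 genes encode a secreted resistin-like protein (Retnlg), proteases (Mmp9, Mmp25, Adam8), a regulator of leukocyte adhesion that binds formyl peptide receptors (Anxa1) and CEACAM proteins of the immunoglobulin superfamily (Ceacam1, Ceacam10).

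Total counts were 7018388 to 9664381 in the WT-labelled and 7179569 to 9165218 in the KO-labelled libraries. Snph itself went against the labels: it had 5 counts in KO 1, 2 in KO 2 and 8 in KO 3 but 0 in WT 1, WT 2 and WT 3, so every direction below rests on the labels as they stand. On the first principal component, which held 28.6% of the variance of 5935 genes, the WT-labelled libraries lay between -11.97 and -4.95 and KO 3, at 2.45, was the KO-labelled library nearest to them. The neutrophil markers S100a8, S100a9, Ly6g, Cxcr2, Csf3r, Camp, Ngp and Ltf were abundant in every library and summed to 255383 to 274313 CPM (counts per 1000000 counts of the library) in the WT-labelled and 289149 to 310109 CPM in the KO-labelled libraries. Of these 8 markers S100a8 passed the test, as higher (log2 0.24, adjusted p = 0.0315), as did 0.24% of all genes tested. None of the 8 was called with upper-quartile or total-count scaling, nor without WT 1, WT 3, KO 1 or KO 2. The library sizes are corrected throughout by TMM factors, edgeR's correction for differences in RNA composition, unless said otherwise. Because each library reads 1 end of a transcript, CPM were not divided by gene length. In RNA from many cells, fewer cells that express a gene and less RNA per cell cannot be told apart.

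Retnlg was the 1 gene of the 7 that passed the test (adjusted p under 0.05), as higher in the KO-labelled libraries by 1.27-fold. Of all genes tested, 1.03% passed the same threshold, 0.24% as higher and 0.789% as lower. The remaining 6 genes did not pass, and 2 of the 7, Retnlg and Mmp9, had an unadjusted p under 0.05, as did 11.4% of all genes. DESeq2 (1.67% of all genes called) and limma-voom (0.789%) also called Retnlg and none of the others. Ceacam1 alone had a fitted difference below 0. The KO-labelled libraries all lay above the WT-labelled ones for Retnlg, Mmp9 and Mmp25, as for 7.48% of all genes tested (16.8% without overlap in either direction). The median log2 fold change was 0.15 for the 7 genes and 0.01 for all genes tested. Without KO 3 the median of the 7 genes was 0.08, and with total-count scaling it was 0.05 against -0.10 for all genes.

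**Figure D1:**
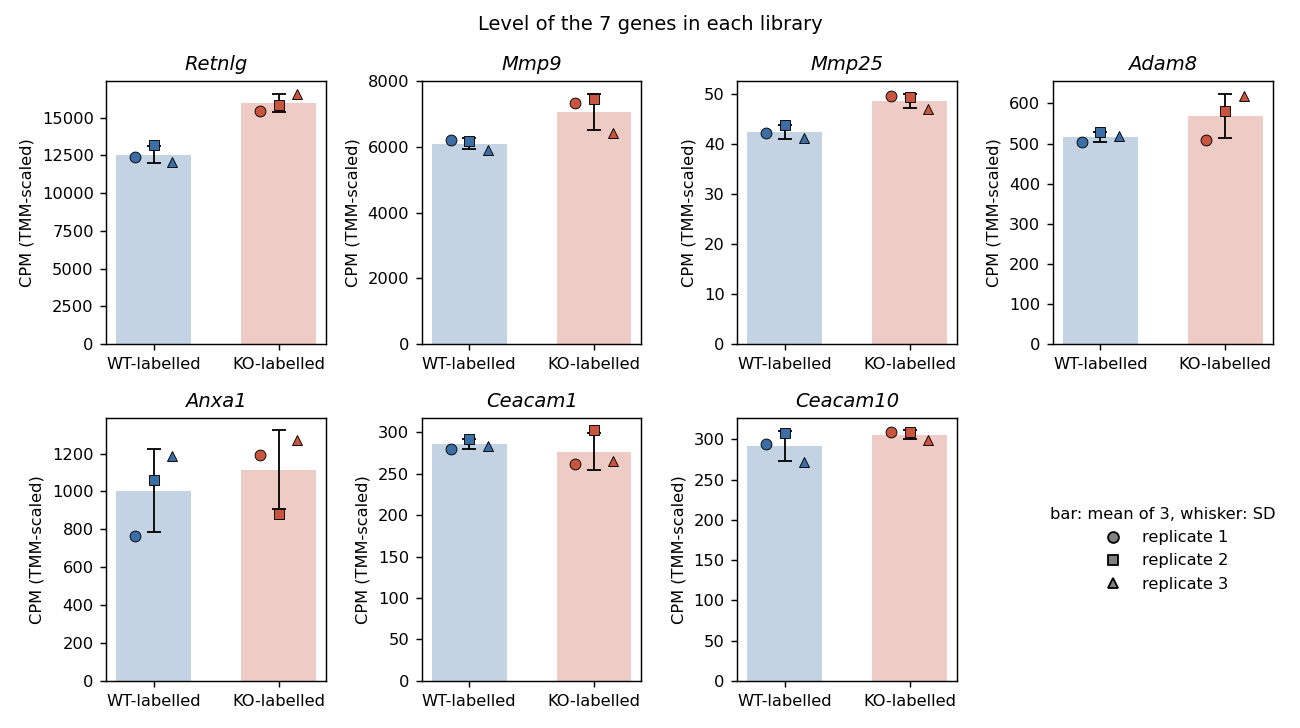
Level of each gene in CPM scaled by TMM factors, with a bar for the mean of 3 libraries, a whisker for the SD and a point per library. The KO-labelled libraries of Retnlg lie at 15433 to 16597 CPM, above the WT-labelled ones at 12079 to 13166 CPM, while the points of Anxa1 spread widely in both groups.

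Retnlg (ENSMUSG00000022651, chromosome 16, 48872621 to 48874496, plus strand, mm10, 4 exons) encodes a small cysteine-rich protein of the resistin family that neutrophils secrete. It was the 7th most abundant gene tested and took 1.28 to 1.33% of all counts in WT-labelled and 1.48 to 1.62% in KO-labelled libraries. Its level was 12414, 13166 and 12079 CPM in WT 1, WT 2 and WT 3, and 15433, 15852 and 16597 CPM in KO 1, KO 2 and KO 3. Every KO-labelled library was higher than every WT-labelled one, also with scaling to the total count alone, where 19.6% of all genes did not overlap. The means were 12553 ± 557 and 15961 ± 590 CPM (SD, n = 3), a 1.27-fold difference (log2 0.35, SE 0.05, 95% interval 0.23 to 0.46, edgeR quasi-likelihood test with Benjamini-Hochberg adjustment over all genes, adjusted p = 0.00498). The gene was called in all 14 alternatives, with an adjusted p of up to 0.0446, reached without WT 1, and its smallest log2 fold change was 0.24, with total-count scaling.

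Counts came from the 3′ end of the transcript, where none of the 50-base words in the last 300 bases of Retnlg occurred in a transcript of another gene. The sequence upstream of the start of Retnlg is shown because it was the gene that passed the test. Sequences here are from RefSeq on GRCm38.p6, cover the 250 bases before a gene's annotated start and were matched for 6 of the 7 genes, all but Mmp9. Capitals mark the match to TTNNGCAA, a form of the site bound by C/EBP factors, which are regulators of granulocyte genes.
Retnlg (chr16:48872358-48872607, plus strand): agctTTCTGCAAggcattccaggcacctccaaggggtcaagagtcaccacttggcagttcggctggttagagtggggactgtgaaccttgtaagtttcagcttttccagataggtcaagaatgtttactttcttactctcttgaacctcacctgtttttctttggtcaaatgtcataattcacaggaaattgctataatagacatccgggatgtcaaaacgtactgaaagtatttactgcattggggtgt
This match began 246 bases before the start. Matches to TTNNGCAA on either strand were found upstream of 3 of the 6 genes (Retnlg, Adam8 and Anxa1) and in 9.56% of 32851 windows of the same length over all genes. Neither TTGCNNCAA, a palindromic C/EBP site (1.74% of windows, both strands), nor GAGGAAGT, a site of the myeloid factor PU.1 (2.44%, both strands), occurred in the 6 genes' windows. The letter patterns can overlap one another, and a match says only that the letters are there.

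Mmp9 (ENSMUSG00000017737, chromosome 2, 164940780 to 164955850, plus strand) encodes gelatinase B, the protease that gives gelatinase granules their name. It was the 11th most abundant gene tested, at 6206, 6185 and 5914 CPM in WT 1, WT 2 and WT 3 and at 7332, 7449 and 6435 CPM in KO 1, KO 2 and KO 3. KO 3 lay close to the WT-labelled libraries and the other KO-labelled libraries well above them. The log2 difference was 0.21 (SE 0.06, 95% interval 0.08 to 0.35) and did not pass the test (adjusted p = 0.174). Without KO 3 it was 0.27 with an adjusted p of 0.0522. With total-count scaling it was 0.11 (adjusted p = 0.431) and the groups overlapped, since KO 3 at 6292 CPM lay below WT 1 at 6408 CPM.

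Mmp25 (ENSMUSG00000023903, chromosome 17, 23628311 to 23645277, minus strand), which encodes leukolysin, a metalloproteinase held in the membrane by a lipid anchor, had the fewest counts of the 7 genes, 306 to 430 per library. Its level was 42.2, 43.9 and 41.2 CPM in the WT-labelled and 49.6, 49.4 and 47.0 CPM in the KO-labelled libraries, in replicate order. No KO-labelled library was as low as any WT-labelled one, with TMM factors or with total-count scaling. The log2 difference was 0.20 (SE 0.10, 95% interval -0.01 to 0.40) and did not pass (adjusted p = 0.482). With total-count scaling it was 0.09 (adjusted p = 0.760). The spread between its libraries, 3.22% of the mean in the WT-labelled group, was below the 5.27% that counting alone gives at this depth, so depth limits what can be seen for Mmp25.

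Adam8 (ENSMUSG00000025473, chromosome 7, 139978932 to 139992562, minus strand), a membrane-bound metalloproteinase of myeloid cells, was at 503.6, 527.7 and 518.3 CPM in WT 1, WT 2 and WT 3 and at 509.9, 580.3 and 618.3 CPM in KO 1, KO 2 and KO 3. KO 1 lay among the WT-labelled libraries and the groups overlapped. The log2 difference was 0.14 (SE 0.08, 95% interval -0.03 to 0.31, adjusted p = 0.553), and it ran from 0.07 without KO 3 to 0.22 without KO 1. With total-count scaling it was 0.04. An exon of Gm16201 on the opposite strand overlaps Adam8, and without a stated strand setting reads of the pair cannot be told apart.

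Anxa1 (ENSMUSG00000024659, chromosome 19, 20373428 to 20390944, minus strand), which encodes annexin A1, a calcium- and phospholipid-binding protein that restrains neutrophil adhesion, varied most between libraries of one label. It was at 762.6, 1062 and 1188 CPM in WT 1, WT 2 and WT 3 and at 1193, 880.2 and 1273 CPM in KO 1, KO 2 and KO 3. The lowest libraries were WT 1 and KO 2, and the groups overlapped over most of their range. The SD was 21.8% of the mean in the WT-labelled and 18.6% in the KO-labelled libraries, where counting alone gives 1.09% and 1.07%. Among 203 genes that averaged 500 CPM or more, 4 had a larger pooled SD within groups on the log2 scale than the 0.31 of Anxa1, and the median was 0.09. Those 4, named after their values were seen, were Dusp1 (a phosphatase gene induced early on stimulation), the haemoglobin gene Hba-a2, Nfkbia (the NF-kappa-B inhibitor) and H2-K1 (MHC class I).

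The log2 difference of Anxa1 between the groups was 0.15 (SE 0.14, 95% interval -0.16 to 0.46, adjusted p = 0.775). It was -0.011 without WT 1 and 0.29 without KO 2, so neither a direction nor a size can be given. The sequence upstream of Anxa1 is shown because Anxa1 was the 1 gene of the 6 whose window held TATAAA, the TATA box, on the coding strand. The RefSeq start was used, and the window lies inside the Anxa1 coordinates given above, which come from GENCODE and place the start elsewhere. Capitals mark TATAAA, which began 32 bases before the start and occurred in 7.59% of all windows, and a match to TTNNGCAA, 143 bases before the start.
Anxa1 (chr19:20390672-20390921, minus strand): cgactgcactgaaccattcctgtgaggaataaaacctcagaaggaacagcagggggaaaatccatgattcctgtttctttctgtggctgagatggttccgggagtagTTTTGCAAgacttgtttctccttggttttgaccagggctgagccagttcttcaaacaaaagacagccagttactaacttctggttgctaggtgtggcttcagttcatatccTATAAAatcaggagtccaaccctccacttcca
Of 2350 genes that averaged 50 CPM or more, those whose log2 CPM followed Anxa1 most closely over the 6 libraries were Myl12a, a myosin regulatory light chain gene (Pearson r = 0.98), and Osm, the gene of the cytokine oncostatin M (r = 0.98). Exons of Myl12a overlap those of Myl12b on its strand, which makes its counts uncertain. Osm was lowest in the same libraries as Anxa1, with 127.3 CPM in WT 1 and 154.6 CPM in KO 2 against 180.7 to 267.7 CPM in the others. These correlations are over 6 libraries, were picked as the highest of those genes and carry no test.

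**Figure D2:**
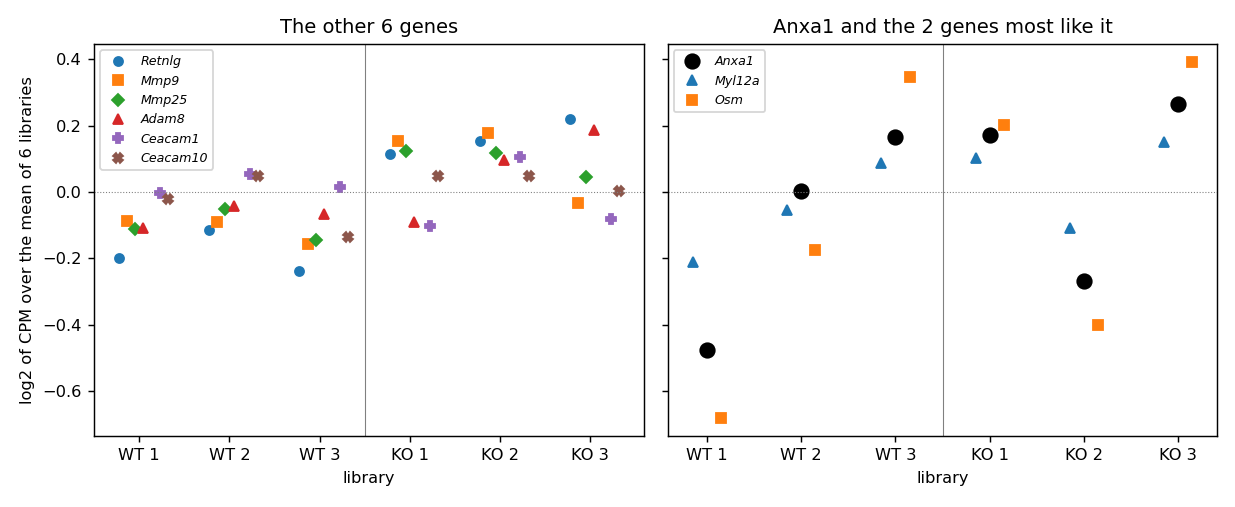
Log2 of CPM over the mean of 6 libraries, by library, for the other 6 genes (left) and for Anxa1 with Myl12a and Osm (right). Retnlg separates the labels, whereas Anxa1 is lowest in WT 1 (762.6 CPM) and KO 2 (880.2 CPM), 1 library of each label.

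Ceacam1 and Ceacam10 lie in the CEACAM cluster of chromosome 7 and showed the smallest differences between the groups with TMM factors. Ceacam1 (ENSMUSG00000074272, 25461707 to 25477603, minus strand) encodes an adhesion receptor with an inhibitory tail, and Ceacam10 (ENSMUSG00000054169, 24777206 to 24784657, plus strand) a secreted member. Ceacam1 was at 280.4, 292.0 and 283.9 CPM in WT 1, WT 2 and WT 3 and at 262.0, 302.5 and 265.9 CPM in KO 1, KO 2 and KO 3. Its KO-labelled libraries lay on both sides of the WT-labelled ones. Ceacam10 was at 294.4, 308.7 and 272.2 CPM in the WT-labelled and 309.1, 309.1 and 299.4 CPM in the KO-labelled libraries, which fell within or just above the WT-labelled range.

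The log2 difference was -0.04 for Ceacam1 (SE 0.08, 95% interval -0.22 to 0.13, adjusted p = 0.895) and 0.07 for Ceacam10 (SE 0.08, 95% interval -0.10 to 0.23, adjusted p = 0.821). These intervals leave out a change as large as that fitted for Retnlg. With total-count scaling Ceacam1 was at -0.15 (adjusted p = 0.424), with 252.1 to 286.5 CPM in the KO-labelled and 289.6 to 300.2 CPM in the WT-labelled libraries, which did not overlap, and Ceacam10 was at -0.036. Ceacam10 thus changed direction with the scaling, whereas Ceacam1 was below 0 in 14 of 14 alternatives and passed in none.

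Both genes had similar counts. The count of Ceacam1 over that of Ceacam10 was 0.953, 0.946 and 1.04 in the WT-labelled and 0.848, 0.979 and 0.888 in the KO-labelled libraries, ranges that overlap. The upstream sequences of the pair are shown because they are near copies of each other. Aligned without gaps, 222 of 232 bases were identical (95.7%), and capitals mark the 10 that differ.
Ceacam1 (chr7:25477644-25477875, minus strand): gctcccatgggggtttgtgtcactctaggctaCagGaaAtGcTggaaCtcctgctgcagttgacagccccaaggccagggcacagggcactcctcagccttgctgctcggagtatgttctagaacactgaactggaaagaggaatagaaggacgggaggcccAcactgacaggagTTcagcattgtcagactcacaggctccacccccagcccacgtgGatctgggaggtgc
Ceacam10 (chr7:24776935-24777166, plus strand): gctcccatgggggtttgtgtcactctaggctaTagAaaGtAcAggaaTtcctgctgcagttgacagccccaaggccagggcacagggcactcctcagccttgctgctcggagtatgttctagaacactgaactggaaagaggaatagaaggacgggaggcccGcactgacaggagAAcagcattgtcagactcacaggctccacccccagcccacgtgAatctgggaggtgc
The windows of 11 other Ceacam genes, aligned to that of Ceacam1 in the same way with shifts of up to 100 bases, were 30.4 to 42.6% identical, and that of Ceacam2 was 31.3% identical. Ceacam2 had 0 counts in 5 libraries and 3 in KO 3. Its transcripts share up to 90.4% of the 50-base words in the last 300 bases of Ceacam1's protein-coding transcripts, so the split of reads between Ceacam1 and Ceacam2 rests on the authors' counting. Ceacam1 and Ceacam10 shared none of the words in those last 300 bases.

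**Figure D3:**
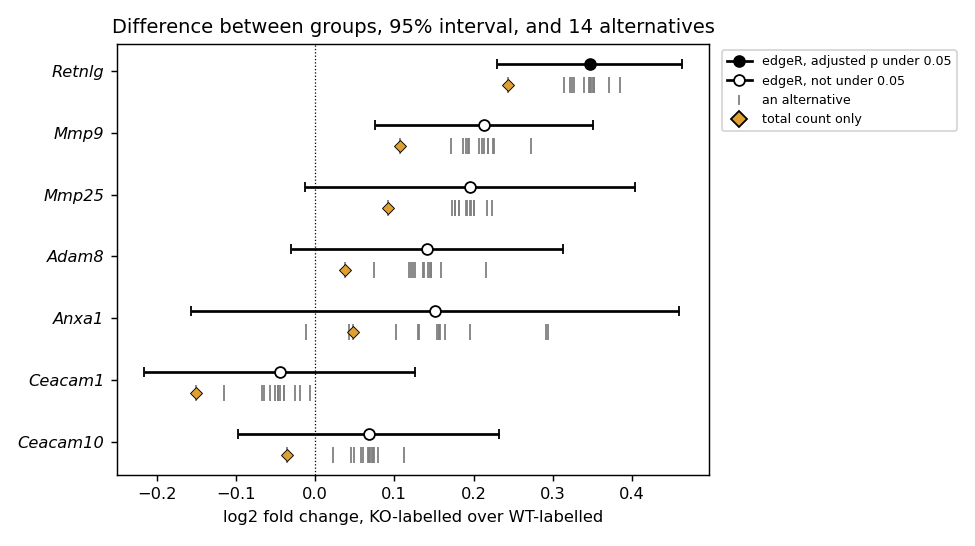
Log2 fold change of each gene, KO-labelled over WT-labelled, with its 95% interval (circle and bar), beside the values of 14 alternatives (ticks), scaling to the total count alone shown as a diamond. The interval of Retnlg, 0.23 to 0.46, and all of its alternatives lie above 0, and Ceacam10 and Anxa1 have values on both sides of 0.

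Ratios of counts within a library do not depend on the scaling between libraries, and they set Retnlg against the other 6 genes. All 6 ratios share the Retnlg count, so they are not independent of one another or of the Retnlg difference above. Retnlg per Ceacam1 was 44.3, 45.1 and 42.5 in WT 1, WT 2 and WT 3 and 58.9, 52.4 and 62.4 in KO 1, KO 2 and KO 3, a 1.31-fold difference. Retnlg per Ceacam10 was 42.2 to 44.4 in the WT-labelled and 49.9 to 55.4 in the KO-labelled libraries, 1.21-fold. Retnlg per Adam8 was 23.3 to 24.95 and 26.8 to 30.3, 1.16-fold, and per Mmp25 it was 292.9 to 299.7 and 311.1 to 353.3, 1.11-fold. In these 4 ratios every KO-labelled library was higher than every WT-labelled one, and an exact two-sided permutation test gave p = 0.1, the smallest that 3 against 3 libraries allow (0.15 adjusted over the 6 ratios). Retnlg per Mmp9 was 2.00, 2.13 and 2.04 in the WT-labelled and 2.10, 2.13 and 2.58 in the KO-labelled libraries, so that KO 3 alone stood apart (exact permutation p = 0.3, adjusted 0.36). Retnlg per Anxa1 overlapped between the groups (exact permutation p = 0.4, adjusted 0.4). Together the 7 genes held 2.12 to 2.19% of all counts in WT-labelled and 2.41 to 2.497% in KO-labelled libraries, and Retnlg and Mmp9 made 88.6 to 91.7% of their summed CPM in every library.

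The relatives and partners of the 7 genes came from lists of families and pathways. Over all genes tested, edgeR called 1.03%, and 11.4% had an unadjusted p under 0.05. In the resistin family, Retn and Retnlb were below 11 CPM in every library and did not pass, and Retnla had 10 counts in all. Of 21 matrix metalloproteinase genes, 8 had no count and 6 were tested, of which edgeR called none (1 with an unadjusted p under 0.05, Mmp9; none by DESeq2 or limma-voom). Mmp8, the collagenase of specific granules, was the other abundant one, at 5412 ± 202 and 5640 ± 165 CPM (SD, n = 3; log2 0.06, adjusted p = 0.781). Of their inhibitors Timp2 was at 405.1 to 451.9 CPM in all libraries (log2 0.01, adjusted p = 0.959), and Timp1 had at most 4 counts in a library. None of 7 tested genes on the ADAM list passed with edgeR, DESeq2 or limma-voom, and 1 had an unadjusted p under 0.05. That gene, Adam19, was at 196.6 to 206.4 CPM in the WT-labelled and 214.2 to 257.1 CPM in the KO-labelled libraries (log2 0.24, adjusted p = 0.267).

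Among 13 tested genes of annexins and their partners, DESeq2 called 2 and limma-voom 1. An unadjusted p under 0.05 was found for 4, all higher, and for 11.4% of all genes in either direction. With edgeR 1 of the 13 passed, S100a11 (ENSMUSG00000027907), whose product binds annexin A1. It was at 2703, 2807 and 2479 CPM in the WT-labelled and 3102, 3289 and 3509 CPM in the KO-labelled libraries, and the groups did not overlap. The log2 difference was 0.31 (SE 0.07, edgeR adjusted p = 0.0481); only 4 of 14 alternatives called it, with an adjusted p of up to 0.169. Of the words in the last 300 bases of S100a11, 21.1% also occur in transcripts of 2 predicted genes, which makes its counts uncertain. Anxa2, the most abundant annexin, was at log2 0.18 (adjusted p = 0.397) and Anxa11 at 0.26 (adjusted p = 0.163). The formyl peptide receptor genes Fpr1 and Fpr2 were at 0.24 and 0.11 (adjusted p 0.196 and 0.632). None of 8 tested genes of CEACAM1 signalling passed with edgeR, DESeq2 or limma-voom. An unadjusted p under 0.05 was found for 2 of them, with Fgr, a kinase gene, at 0.19 (adjusted p = 0.339).

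Other granule lists were set beside the 7 genes by stage of maturation. Over all genes tested, 0.789% passed as lower. Of the 9 azurophil genes tested, 1 passed, as lower (4 had an unadjusted p under 0.05, 2 of them higher: Srgn, the gene of the granule proteoglycan serglycin, at 0.29, and the serine protease gene Prss57 at 0.70). The median log2 fold change was -0.18, and -0.04 with the filter of 5 CPM in 3 libraries. Leaving out 1 library gave -0.34 (without KO 2) to -0.08 (without KO 3). The summed level, mostly Srgn, was 524.9 to 613.0 CPM in the WT-labelled and 597.5 to 688.2 CPM in the KO-labelled libraries. The gene that passed was Ctsc, the gene of cathepsin C, which activates granule serine proteases, at 38.6, 38.5 and 40.8 CPM in the WT-labelled and 20.6, 17.2 and 28.1 CPM in the KO-labelled libraries (log2 -0.83, SE 0.16, adjusted p = 0.0176). It passed in 9 of 14 alternatives and not without WT 1, WT 2, WT 3, KO 1 or KO 2 (adjusted p up to 0.0960). Whether the difference in Ctsc lay in neutrophils or in other cells of the preparation was not tested. Elane, Prtn3 and Ctsg were below 10 CPM in every library. None of 13 tested specific granule genes passed with edgeR, DESeq2 or limma-voom (4 with an unadjusted p under 0.05; median 0.08), among them Lcn2 (lipocalin 2; log2 0.23, adjusted p = 0.180) and Ltf (lactoferrin; -0.01, adjusted p = 0.957). Of 26 late neutrophil genes, 4 passed, each as higher, as did 0.24% of all genes tested. DESeq2 called 8 and limma-voom 5, and 2 were called with total-count scaling or without WT 1, WT 2, KO 1 or KO 2. An unadjusted p under 0.05 was found for 19 of the 26, all higher, and for 11.4% of all genes in either direction. The median of the 26 was 0.23 and all 26 values lay above 0, as did those of 50.9% of all genes tested. The 26 were listed with earlier results of these data known, so these counts are not independent support for a rise.

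The 4 late genes were Ccl6, a chemokine gene (log2 0.37, adjusted p = 0.0126), Ifitm2 (0.41, adjusted p = 0.0487) and the stefin genes Gm5483 (0.91, adjusted p = 0.000131) and Stfa2l1 (0.76, adjusted p = 0.0168). Of 14 alternatives, 14 called Gm5483, 11 each Ccl6 and Stfa2l1, and 5 Ifitm2. Ifitm2 overlaps an exon of Gm45717, and 24.3% of the end words of Stfa2l1 occur in Stfa2, so their counts are uncertain. With total-count scaling the medians were -0.28 for the azurophil, -0.03 for the specific granule and 0.13 for the late list, beside the 0.05 of the 7 genes. The lists were drawn up with earlier results of these data known, and no test of the lists was run.

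**Figure D4:**
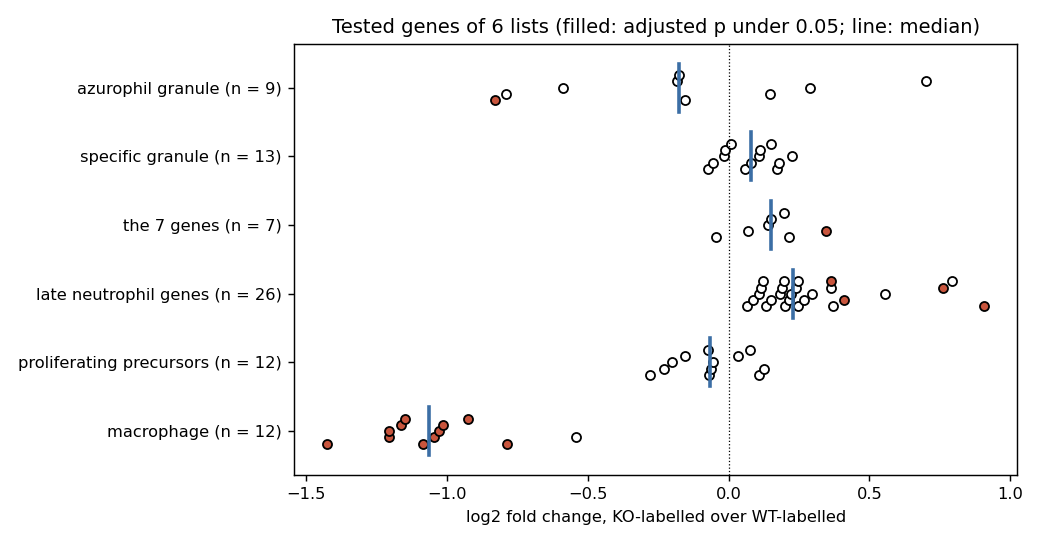
Log2 fold change, KO-labelled over WT-labelled, of each tested gene on 6 lists, filled where the adjusted p was under 0.05, with a line at the list's median. The 7 genes (median 0.15) lie between the specific granule genes (0.08) and the late neutrophil genes (0.23), and macrophage genes lie far below 0 (median -1.06). Without KO 3 the median was 0.08 for the 7 genes, 0.07 for the specific granule genes and 0.22 for the late neutrophil genes. The lists were made with earlier results of these data known.

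Genes that carry granules to the surface and that regulate granule genes were tested as well. Over all genes tested, 11.4% had an unadjusted p under 0.05. None of 17 tested exocytosis genes passed with edgeR, DESeq2 or limma-voom (4 with an unadjusted p under 0.05; median 0.07). Rab27a, a GTPase gene of granule docking, was at 50.5, 57.8 and 71.6 CPM in the WT-labelled and 43.7, 41.2 and 47.8 CPM in the KO-labelled libraries (log2 -0.44, SE 0.12, adjusted p = 0.143). Same-strand exons of Gm27186 overlap Rab27a. None of 13 tested genes of other gelatinase granule and secretory vesicle cargo passed with any of these tools (5 with an unadjusted p under 0.05; median 0.08), with Plaur, the urokinase receptor gene, at 0.23 (adjusted p = 0.248). None of 17 transcription factor genes passed with them (3 with an unadjusted p under 0.05; median 0.13), with Irf1 at 0.29 and Mxd1 at 0.22 (adjusted p 0.194 and 0.193).

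Transcripts of other cells also differed with the label. Of all genes tested, 0.789% passed as lower and 0.24% as higher, and 11.4% had an unadjusted p under 0.05. Of 12 macrophage markers 11 passed as lower, and all 12 lay below 0. All 12 were detected in every library, with a summed level of 1282 to 1353 CPM in the WT-labelled and 582.6 to 736.7 CPM in the KO-labelled libraries. Of 7 tested platelet markers 3 passed as lower (Pf4, Ppbp and Itga2b), and all 7 lay below 0. The list summed to 140.9 to 163.0 CPM in the WT-labelled and 63.9 to 99.1 CPM in the KO-labelled libraries. Ppbp passed in 14 of 14 alternatives, Itga2b in all but the fit without WT 1, and Pf4 in 10, not without WT 1, WT 2, KO 2 or KO 3. Of 7 tested eosinophil and basophil markers 1 passed as lower, Ccr3 (log2 -1.15, adjusted p = 0.0183), while 4 of the 7 lay above 0 (median 0.01). No marker on that list was called without WT 1, WT 2, WT 3, KO 1 or KO 2. Of 9 B and plasma cell markers 2 passed as higher, Igkc and Jchain, but 5 of the 9 lay below 0 (median log2 fold change -0.20). An unadjusted p under 0.05 was found for 4, of which 2 were higher. The 9 markers summed to 245.3 to 274.1 CPM in the WT-labelled and 350.8 to 801.7 CPM in the KO-labelled libraries, highest in KO 2. Neither Igkc nor Jchain was called by DESeq2 or without WT 1, WT 2 or WT 3, and limma-voom did not call Jchain. Without KO 2, Igkc went from log2 1.498 to 0.89 and Jchain from 1.39 to 0.83, where it was no longer called (adjusted p = 0.0792). No monocyte marker (7 tested) and no marker of proliferating precursors (12 tested) passed with edgeR, DESeq2 or limma-voom (2 and 1 with an unadjusted p under 0.05), and the latter summed to 346.5 to 419.8 and 319.4 to 378.5 CPM. Anxa1 and Ceacam1 are known from other cell types as well. The part of these cells in the values of the 7 genes was not tested.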

How the data were processed

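The authors deposited a single table of gene counts, whole numbers not scaled between the 6 libraries. The genome build mm10, RSEM 1.2.3 and DESeq2 appear per the submitters' processing notes, which assign them no role; aligner, annotation release, strand setting and filters: not given in the sources used here. Columns were matched to samples by name. Symbols, coordinates and exon overlaps were taken from GENCODE vM21 (GRCm38, the assembly of mm10); 51596 of 51789 identifiers had a symbol, and the rest held 0.00812% of counts.

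The test was the quasi-likelihood F test of edgeR 4.0.16, run in R 4.3.3 (TMM factors, filterByExpr with a minimum count of 10 and a minimum total of 15, group as the one term, Benjamini-Hochberg adjustment over 10397 genes, threshold 0.05). SE is the size of the log2 fold change divided by the square root of F. TMM factors were 1.02 to 1.06 in the WT-labelled and 0.949 to 0.980 in the KO-labelled libraries, so scaling bears on small differences between the groups. Ratios of Retnlg to the other genes were compared with an exact two-sided permutation test (scipy 1.17.1). No pair of replicates agreed within sampling noise: chi-square per degree of freedom was 4.12 to 6.79. Alternatives were other scalings and filters, DESeq2 1.42.0, limma-voom (limma 3.58.1), a replicate block and leaving out each library. The procedure was tested on simulated data. Named genes were all 7 members, the called genes or else the 2 with the smallest p on each list, the 2 most abundant relatives in each family, and the 2 genes closest in pattern to each member; not all are printed, and 1 gene on the lists is not reported here. The members and lists were chosen with earlier results of these data known.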

Additional observations from a re-analysis of the deposited data

How the results depend on the processing

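Of the 7 genes, Retnlg was called and no other was in each of the 14 alternatives: other scalings (RLE, upper-quartile, total count only), no filter or 5 CPM in 3 libraries, DESeq2, limma-voom, the replicate block and each library left out in turn. Directions turned for Ceacam10 with total-count scaling (log2 -0.036) and for Anxa1 without WT 1 (-0.011); fits of Anxa1 without 1 library gave -0.011 to 0.294. Over all genes, 107 were called; total-count scaling called 162, a fit with no filter 287 and DESeq2 174, and fits without 1 library called 49 to 97. Total-count scaling, which leaves out the TMM factors, moved the median of all genes from 0.01 to -0.10. The share of lower calls was 76.6% in the main fit, 88.9% with total-count scaling, 60.3% with no filter and 65.5% with DESeq2. Why these shares differ was not tested. In the fit with the replicate block Retnlg was at log2 0.35 (adjusted p = 0.00784), and the number of members called was 1. Same-numbered libraries did not deviate together (correlations of -0.03 to 0.00 over 5935 genes) and no library correlated best with its own number (-0.21 to 0.19 for the other pairs), so the numbers are taken as names only. The correlations above 0 were WT 1 with KO 2 (0.16), WT 2 with KO 3 (0.18) and WT 3 with KO 1 (0.19). No label ties these libraries together, and a shared source was not tested. The ratios of Retnlg to the other genes kept their direction with 1 count added, with libraries paired by number and with each library left out. Leaving out 1 library moved the log2 ratio to Mmp9 from 0.14 to 0.04 (without KO 3), that to Mmp25 from 0.15 to 0.10 (without KO 3) and that to Anxa1 from 0.19 to 0.03 (without WT 3 or KO 2) or 0.37 (without WT 1). Depth limits Mmp25 most, at 306 to 430 counts per library. Alternatives for called genes outside the 7 were added after the data were seen: S100a11 was called in 4 of 14, Ifitm2 in 5, Jchain in 8, Ctsc in 9, and Igkc and Pf4 in 10 each, none with a change of direction. S100a8 and Ccr3 were not counted in this way, and the fits that called no gene of their lists are given above.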
